A study of Rattus norvegicus with 16 samples.

Results

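The genes that make cholesterol and fatty acids were measured in cultured rat hippocampal neurons after hydroxyurea. The set held 32 genes listed by name, among 11083 named genes and 18110 features (named genes and unnamed probes) that were tested. It comprised 7 enzymes of the mevalonate pathway, 11 enzymes from squalene to cholesterol, 6 regulators and sterol carriers, and 8 enzymes of fatty acid synthesis. A probe belonged to a member if its accession mapped to the listed rat gene, which gave 35 probes. Fdps, Stard4 and Elovl6 had 2 probes each, and the brighter probe stood for the gene. All 32 members passed the filter on dim probes, and 30 of them were well above background on all 16 arrays. Mvk and Elovl6 fell short on 1 array, the first array of untreated replicate 1.

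The neurons were primary cultures from hippocampi of embryonic day 18 Sprague-Dawley rats, grown in Neurobasal medium with 5% B27 and then moved to B27 lacking antioxidants. The 5 groups were untreated cultures and cultures given 5 µM hydroxyurea, an inhibitor of ribonucleotide reductase, for 2, 6, 12 or 24 h. Each group had 3 replicates, which gave 15 samples on 16 one-colour arrays, since RNA of untreated replicate 1 was run once per slide and its arrays were averaged. Culture age is given as 6 to 9 days in one label and as up to 8 days in another. Neither time-matching of the untreated cultures nor separate cultures for the replicates is stated in the labels, so p-values here measure only spread among these samples, possibly technical.

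Cholesterol is built from acetyl-CoA by way of mevalonate, isoprenoid diphosphates, squalene and lanosterol, and fatty acids from the same acetyl-CoA by way of malonyl-CoA. Both pathways are controlled by the SREBP transcription factors, encoded by Srebf1 and Srebf2. When membrane sterol is low, Scap escorts SREBP from the endoplasmic reticulum to the Golgi for cleavage, and when sterol is high the Insig proteins hold the complex back. The brain makes its own cholesterol, and neurons and astrocytes both carry these enzymes.

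SREBP acts on promoters together with NF-Y, which binds CCAAT, and Sp1, which binds GGGCGG. The 250 bases upstream of the annotated start are printed for 5 of the 6 members with the smallest p for a difference among replicate numbers (F test, below), to show how these letters are spread over genes that differed together. The sixth, Stard4, had no entry. Sequences are from RefSeq, build GRCr8, read 5′ to 3′ on the strand of the gene. Capitals mark CCAAT and GGGCGG on either strand.
Cyp51: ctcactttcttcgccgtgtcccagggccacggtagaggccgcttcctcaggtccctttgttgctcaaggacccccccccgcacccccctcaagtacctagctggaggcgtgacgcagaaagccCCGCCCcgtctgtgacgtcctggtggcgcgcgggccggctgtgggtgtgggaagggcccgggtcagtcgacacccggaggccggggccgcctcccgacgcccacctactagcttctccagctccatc
Tm7sf2: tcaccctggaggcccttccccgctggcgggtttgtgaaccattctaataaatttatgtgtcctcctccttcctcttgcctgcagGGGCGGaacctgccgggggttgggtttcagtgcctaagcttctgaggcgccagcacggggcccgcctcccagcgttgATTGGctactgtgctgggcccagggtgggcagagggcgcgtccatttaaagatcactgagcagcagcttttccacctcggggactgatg
Acat2: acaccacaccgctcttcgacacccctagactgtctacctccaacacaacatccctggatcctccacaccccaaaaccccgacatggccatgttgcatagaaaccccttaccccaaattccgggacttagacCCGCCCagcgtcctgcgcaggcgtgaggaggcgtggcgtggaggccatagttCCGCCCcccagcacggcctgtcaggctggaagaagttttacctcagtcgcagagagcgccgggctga
Scd: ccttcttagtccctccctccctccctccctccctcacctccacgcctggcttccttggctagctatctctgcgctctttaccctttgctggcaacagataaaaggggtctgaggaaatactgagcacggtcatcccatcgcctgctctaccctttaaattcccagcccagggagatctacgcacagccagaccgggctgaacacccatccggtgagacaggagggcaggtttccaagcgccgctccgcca
Lss: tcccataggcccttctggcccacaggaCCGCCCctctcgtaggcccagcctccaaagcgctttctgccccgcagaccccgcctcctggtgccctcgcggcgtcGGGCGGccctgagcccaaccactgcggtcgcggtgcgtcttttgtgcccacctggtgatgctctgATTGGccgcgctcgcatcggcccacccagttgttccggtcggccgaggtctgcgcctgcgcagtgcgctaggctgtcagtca
The sequences lie at chr4:30991443-30991692 and chr1:50100590-50100839 (plus strand, Cyp51 and Acat2) and at chr1:212789542-212789791, chr1:253231732-253231981 and chr20:12118231-12118480 (minus strand, Tm7sf2, Scd and Lss).

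Tm7sf2 and Lss held both motifs, Cyp51 and Acat2 held GGGCGG alone, and Scd held neither. Over the full windows in the table (250 bases before and 50 after the start, both strands searched), 25 members had 26 windows, Srebf1 having 2. CCAAT was present in 20 of the 26 member windows against 37.5% of all 33469 windows, and GGGCGG in 22 against 33.1%. Both were present in 17 member windows, against 11.8% of all. TCACNCCAC, a form of the sterol regulatory element, was in 0 of 26 member windows (1.12% of all), and the E-box TCACGTGA was also in 0 (0.777% of all). Matches of these letters are a description of the windows and not evidence of binding.

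Each value is the log2 processed signal set against the 75th percentile of its array, which lies at 0, and levels of different probes are not compared. The share of probes well above background ran from 64.56% to 70.37%, and no spot was saturated. The replicate spots of a probe agreed to a median CV of 3.35% to 6.87% on 14 arrays. The exceptions were the first array of untreated replicate 1 (10.81%) and 12 h replicate 3 (21.84%). Neuronal and glial transcripts were both present: 9 of 10 neuron markers were tested, with Map2 at 1.79 to 2.66 over the samples, and all 10 astrocyte markers, with Gfap at -1.18 to -0.19. Of the microglial markers, 6 were tested, and P2ry12, Itgam, C1qa and Ptprc did not pass the filter on dim probes. The oligodendrocyte marker Mog and the endothelial markers Cldn5, Flt1 and Tek were likewise on the arrays but not among the tested genes.

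Some libraries at 24 h went against their replicate number. An unnamed probe, A_44_P636717, chosen after its values were seen, read 0.05 to 0.36 in every sample labelled replicate 2 and 0.18 to 0.35 in replicate 1 of the untreated, 2, 6 and 12 h groups. In replicate 3 of those groups it read -4.64, -4.65, -4.5 and -6.76. At 24 h the low value, -4.94, was in the library labelled replicate 1, and replicate 3 read 0.33. Col1a1, a fibroblast collagen, was likewise highest in replicate 3 at the first 4 groups (0.11, 0.37, 0.22 and -0.1), and at 24 h it was highest in the library labelled replicate 1 (0.1, against -1.27 in replicate 3). In the deposited table of scores the columns of 24 h replicates 1 and 3 match each other's scanner file. Below, the labels are followed first, and the counts of members called by number are given also with these 2 numbers exchanged and without the 24 h group. The exchange was read from these same arrays and the deposited scores, so counts under it are no independent test of the numbers.

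The members differed more by replicate number than by treatment group. Across the 15 samples, the median share of a member's variance between samples that lay between replicate numbers was 46%, against 9.4% between the 5 groups. For all features the medians were 16.1% and 19.4%. The share between numbers exceeded that between groups for 24 of 32 members and for 43.5% of features. With the 24 h numbers exchanged, the median share between numbers was 48.8% for members and 19.9% for all features, and without the 24 h group it was 59% and 23.2%.

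The direction was shared by most members. Replicate 3 was above replicate 2 for 28, 31, 30, 27 and 22 of the 32 members in the untreated, 2, 6, 12 and 24 h groups. The same order held for 47.1%, 54.4%, 53.1%, 55.7% and 48.9% of features. It held in all 5 groups for 16 members, against 5.64% of features, and replicate 2 was the lowest of the 3 in all 5 groups for 7 members, against 1.37% of features. Replicate 3 was the highest for 21, 24, 22 and 27 members in the untreated, 2, 6 and 12 h groups but for 5 at 24 h, where the library labelled replicate 1 was highest for 21.

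**Figure D1:**
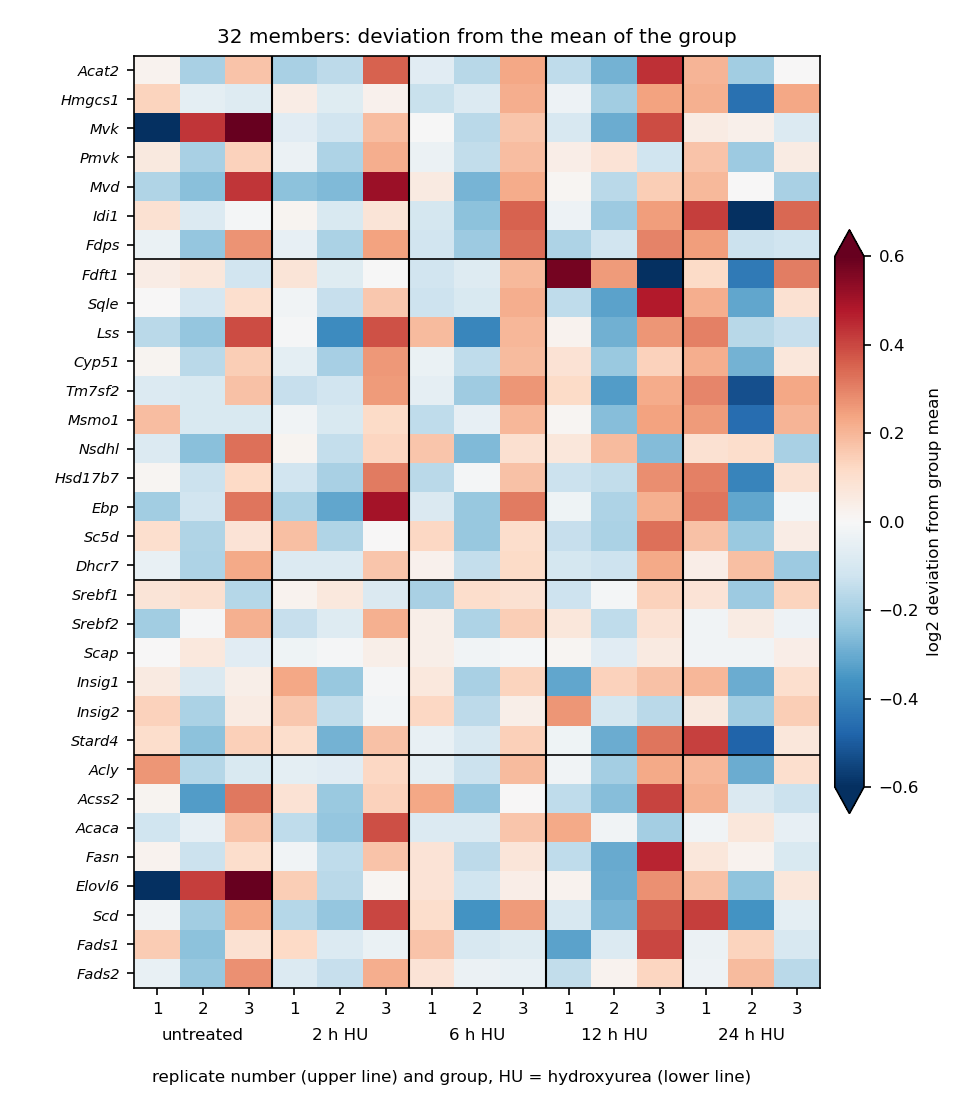
Deviation of each of the 32 members (rows, with lines between the 4 lists) from the mean of its group (log2, colour limits at -0.6 and 0.6), in the 15 samples (columns: replicate number within group). Replicate 2 columns are mostly blue and replicate 3 columns mostly red up to 12 h, and at 24 h the red column is the one labelled replicate 1.

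In a limma fit with group and replicate number as terms, replicate 3 minus replicate 2 had a median of 0.31 over the members (1.24-fold), with 31 higher and 1 lower (53.2% of features were higher). The median over all features was 0.01. As labelled, 0 of 32 members passed an adjusted p of 0.05, while 200 of 18110 features did (1.1%). At an unadjusted p under 0.05 there were 19 members, all higher in replicate 3, against 11.4% of features in either direction and 5.43% higher. The smallest adjusted p of a member was 0.0668, for Cyp51.

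With the 24 h numbers exchanged, 12 of 32 members were called higher in replicate 3 than in replicate 2 (3.31% of features were called in either direction, 1.09% higher), and the median was 0.34. They were Scd (1.53-fold), Lss (1.51-fold), Ebp (1.48-fold), Stard4 (1.43-fold), Mvd and Tm7sf2 (1.41-fold each), Acat2 (1.4-fold), Fdps (1.37-fold), Acss2 (1.36-fold), Sqle (1.34-fold), Hsd17b7 (1.33-fold) and Cyp51 (1.31-fold). Their adjusted p ran from 0.00122 for Scd to 0.0481 for Acss2. Without the 24 h group, 6 members were called (1.89% of features): Scd, Lss, Fdps, Ebp, Acat2 and Mvd. Leaving out only the library labelled 24 h replicate 1 gave 6 members (1.7% of features), and leaving out only 24 h replicate 3 gave 7 (2.27%). With the numbers exchanged, 10 were called without 12 h replicate 3 (3.02%) and 10 without untreated replicate 1 (3.07%).

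**Figure D2:**
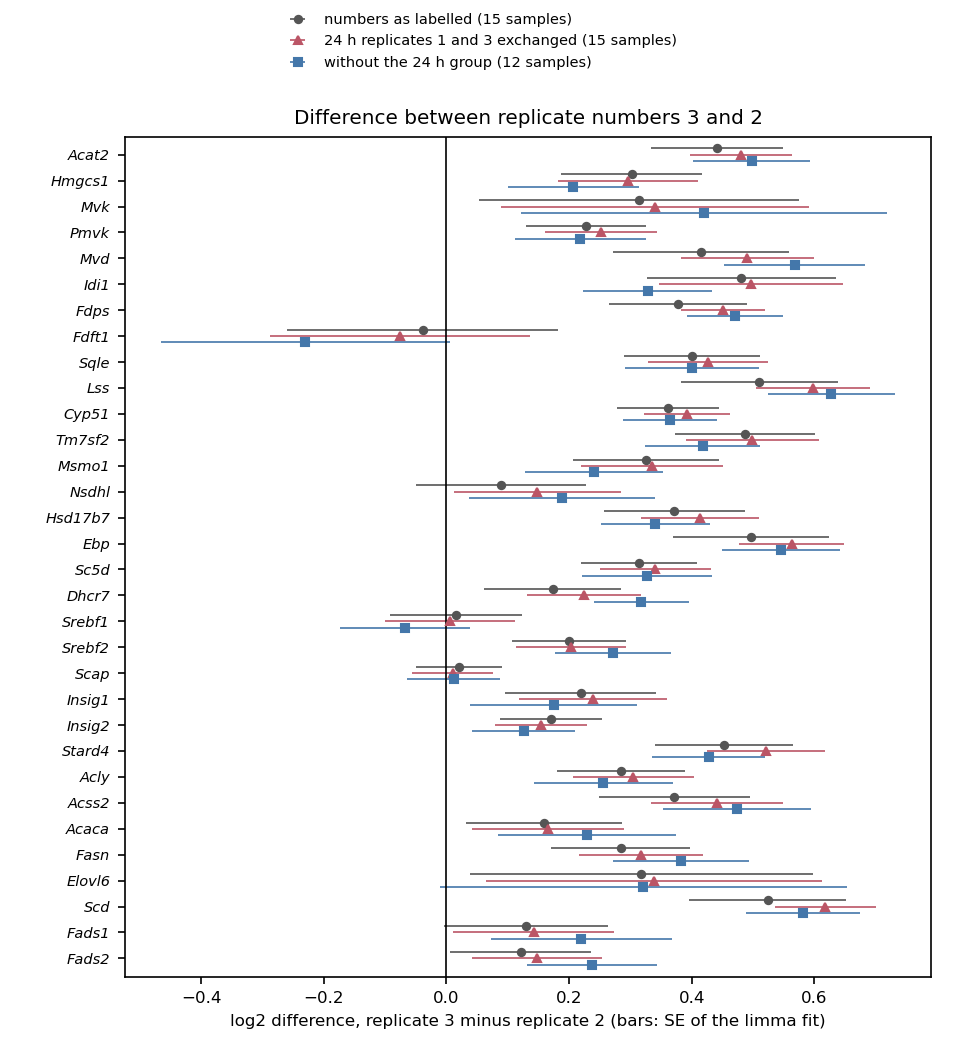
Difference of replicate 3 minus replicate 2 for each member (log2, points, with bars of 1 SE of the limma fit), as labelled, with 24 h replicates 1 and 3 exchanged, and without the 24 h group. All members but Fdft1 and, without 24 h, Srebf1 (-0.07) lie to the right of 0 under the 3 settings, Scap by 0.01 to 0.02.

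Replicate 1 lay between the others. As labelled, replicate 2 minus replicate 1 had a median of -0.18, with 28 members lower, 0 called and 10 at an unadjusted p under 0.05, all lower (features: 0.69% called, 7.22% at that p, 2.46% lower, and 54.1% higher at any p). Replicate 3 minus replicate 1 had a median of 0.13, with 29 members higher, 0 called and 2 at an unadjusted p under 0.05, both higher (features: 0% called, 6.31% at that p, 3.93% higher, and 56.2% higher at any p). With the 24 h numbers exchanged the latter had 3 members called, Fdps (0.38, SE 0.069), Ebp (0.44, SE 0.085) and Scd (0.38, SE 0.082), and 1.39% of features. With the exchange there were 2 without 12 h replicate 3 (1.14% of features), 1 without untreated replicate 1 (0.773%) and 0 with the slide as a block (0.226%), and without the 24 h group there were 0 (0.613%). In the F test over the 3 numbers, 0 members were called as labelled (0.878% of features) and 17 had an unadjusted p under 0.05 (8.96%). Members called numbered 8 with the exchange (3.48%) and 4 without the 24 h group (1.83%).

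The replicate numbers were unequally spread over the 2 slides. With the 24 h numbers exchanged, all samples of number 3 were on slide 2. Those of number 1 were on slide 1, apart from the repeat array of untreated replicate 1. With the exchange, the difference of numbers 3 and 1 therefore cannot be told apart from the slide, except within the untreated group. Within slide 2 the direction was the same. At 12 h, 27 of 32 members were higher in replicate 3 than in replicate 2 (median 0.43), against 55.7% of features (median 0.06). That replicate 3 was the sample with the widest spot spread (median CV 21.84%). At 24 h, 26 members were lower in replicate 2 than in the library labelled replicate 1 (median -0.41), while 57.8% of features were higher (median 0.08). Within slide 1, replicate 2 was below replicate 1 for 25, 26 and 26 members in the untreated, 2 h and 6 h groups (medians -0.19, -0.12 and -0.14). In the same pairs, 43.4%, 53.7% and 51.2% of features were higher in replicate 2 (medians -0.04, 0.02 and 0.01). On slide 2, untreated replicate 3 was above untreated replicate 1 for 23 members (median 0.17), against 57.2% of features (median 0.05). With the exchange and the slide as a block, 9 members (1.71% of features) were called for replicate 3 minus replicate 2 (median 0.37) and 0 (0.226% of features) for replicate 3 minus replicate 1. The arrays of untreated replicate 1, the same RNA on both slides, differed by a median of -0.08 over the members (slide 2 minus slide 1), equal to the median of all features.

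The mevalonate enzymes shared this order by number. All 7 were higher in replicate 3 than in replicate 2 as labelled (median 0.38), with 0 called and 6 at an unadjusted p under 0.05. With the exchange 3 were called, Acat2, Mvd and Fdps. Acat2 (probe A_64_P024620, NM_001006995) is the cytosolic thiolase that joins the first acetyl-CoA units. It read 5.51, 5.71, 5.59, 5.85 and 5.3 in replicate 3 of the untreated, 2, 6, 12 and 24 h groups, 5.14, 5.2, 5.19, 5.13 and 5.09 in replicate 2, and 5.36, 5.16, 5.29, 5.26 and 5.5 in replicate 1. No value of replicate 3 fell as low as the highest of replicate 2. The means were 5.59 ± 0.21, 5.15 ± 0.05 and 5.32 ± 0.13 (SD, n = 5 for each number).

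Hmgcs1, the HMG-CoA synthase of the pathway, read 7.08, 6.89 and 6.87 in untreated replicates 1, 2 and 3, and 7.19, 6.53 and 7.21 at 24 h. The 2, 6 and 12 h values were 7.1, 6.98, 7.08, then 6.93, 6.98, 7.28, then 7.1, 6.92 and 7.37. Its difference of replicate 3 minus replicate 2 was 0.3 (SE 0.115, limma adjusted p = 0.326; 0.233 with the exchange and 0.391 without 24 h), and the numbers overlapped. Pmvk (phosphomevalonate kinase), Mvd (the decarboxylase), Idi1 (the isomerase) and Fdps (farnesyl diphosphate synthase) differed by 0.23, 0.42, 0.48 and 0.38. For Idi1 a single sample, 24 h replicate 2 at 2.9, lay far below its others (3.67 to 3.77 in replicate 2). The other Fdps probe gave 0.34.

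The steps from squalene to cholesterol followed the same order. Of 11 genes, 10 were higher in replicate 3 than in replicate 2 as labelled (median 0.36), 8 at an unadjusted p under 0.05 and 0 called, and 6 were called with the exchange. Replicate 3 was above replicate 2 in all 5 groups for 8 of the 11, against 3 of 7 mevalonate enzymes, 2 of 6 regulators and 3 of 8 fatty acid enzymes. These shares were not tested against each other. Fdft1 (squalene synthase) and Nsdhl (a sterol decarboxylase) did not share the order: replicate 3 was above replicate 2 in 3 of 5 groups for each. Fdft1 read 1.89 in 12 h replicate 3, the sample with the widest spot spread, against 2.74 to 3.47 in the other 14.

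Cyp51 (A_42_P604399, NM_012941), the lanosterol demethylase, had the smallest p among members in the F test over numbers (limma adjusted p = 0.159). It read 3.42, 3.58, 3.49, 3.49 and 3.37 in replicate 3 from untreated to 24 h, 3.11, 3.12, 3.15, 3.13 and 3.02 in replicate 2, and 3.29, 3.26, 3.26, 3.44 and 3.52 in replicate 1. Every value of replicate 2 lay below every value of the other numbers. Replicate 3 minus replicate 2 was 0.36 (SE 0.083), and 0.39 with the exchange (SE 0.07, limma adjusted p = 0.00942).

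Tm7sf2 (A_64_P083888, NM_001013071) encodes a sterol C14 reductase, the next step. Replicate 3 read 2.62, 2.83, 2.73, 2.78 and 2.62, replicate 2 read 2.35, 2.46, 2.25, 2.22 and 1.86, and replicate 1 read 2.36, 2.44, 2.41, 2.67 and 2.68. The 24 h value of replicate 2 was the lowest of the 15, and replicates 3 and 2 did not overlap. Lss (A_64_P126508, NM_031049), the lanosterol synthase, read 2.44, 2.37, 2.22, 2.33 and 1.85 in replicate 3, 1.82, 1.61, 1.63, 1.78 and 1.82 in replicate 2, and 1.89, 1.98, 2.21, 2.09 and 2.29 in replicate 1. Replicate 2 was again below both other numbers throughout, by the least at 24 h, where replicate 3 exceeded it by 0.03.

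Sqle, the squalene epoxidase and a rate-controlling step, read 4.98, 4.88 and 5.08 in untreated replicates 1, 2 and 3, then 4.98, 4.86 and 5.16 at 2 h, 4.93, 4.96 and 5.27 at 6 h, 4.97, 4.8 and 5.6 at 12 h, and 5.2, 4.67 and 5.07 at 24 h. Replicates 3 and 2 did not overlap (means 5.24 ± 0.22 and 4.84 ± 0.11, SD, n = 5). Ebp (the sterol isomerase), Hsd17b7 (a keto-sterol reductase), Sc5d (the C5 desaturase) and Msmo1 (the C4 methyl oxidase) differed by 0.5, 0.37, 0.31 and 0.33 between replicates 3 and 2. Dhcr7, the last reductase, differed by 0.17 (SE 0.112).

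**Figure D3:**
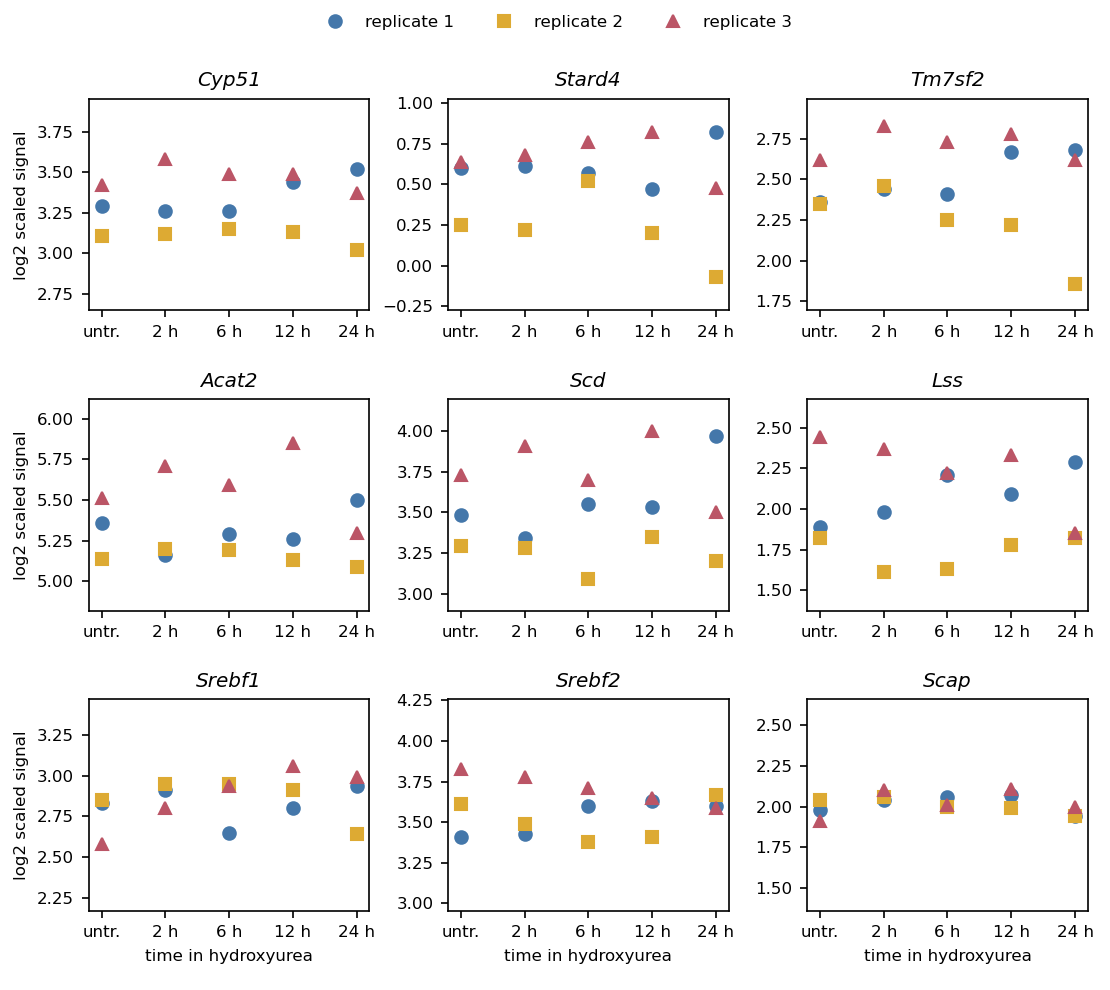
Scaled signal (log2) of 9 members in every sample, by group (untr. is untreated) and replicate number; each panel spans 1.3 log2 units. Replicate 2 (squares) is lowest throughout for Cyp51, Stard4, Scd and Lss, replicate 1 is the highest at 24 h for these and for Tm7sf2 and Acat2, and Srebf1 and Scap show no order by number.

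All 6 genes for regulators and sterol carriers were higher in replicate 3 than in replicate 2 as labelled (median 0.19), with 0 called and 1 at an unadjusted p under 0.05. That gene was Stard4 (A_42_P776018, NM_001106159), a carrier that moves cholesterol between membranes. It read 0.64, 0.68, 0.76, 0.82 and 0.48 in replicate 3, 0.25, 0.22, 0.52, 0.2 and -0.07 in replicate 2, and 0.6, 0.61, 0.57, 0.47 and 0.82 in replicate 1. Replicate 2 was lowest in every group, and its 6 h value overlapped the 24 h value of replicate 3. Its other probe gave 0.24 for replicate 3 minus replicate 2, against 0.45.

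Srebf1 and Scap, which encode the factor of lipid genes and its escort, had the smallest differences among the regulators. Srebf1 read 2.83, 2.85 and 2.58 in untreated replicates 1, 2 and 3, and 2.91, 2.95 and 2.8 at 2 h. At 6, 12 and 24 h it read 2.65, 2.95, 2.94, then 2.8, 2.91, 3.06, then 2.94, 2.64 and 2.99. Scap stayed between 1.91 and 2.11 in all 15 samples: 1.98, 2.04 and 1.91 untreated, 2.04, 2.06 and 2.1 at 2 h, 2.06, 2 and 2.01 at 6 h, 2.07, 1.99 and 2.11 at 12 h, and 1.94, 1.94 and 2 at 24 h. Replicate 3 minus replicate 2 was 0.02 for each (SE 0.108 and 0.07), and that of Srebf1 was -0.07 without the 24 h group.

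Srebf2, which encodes the factor most tied to sterol genes, read 3.41, 3.61 and 3.83 untreated, 3.43, 3.49 and 3.78 at 2 h, 3.6, 3.38 and 3.71 at 6 h, 3.63, 3.41 and 3.65 at 12 h, and 3.6, 3.67 and 3.59 at 24 h. Replicate 3 was highest in the first 4 groups, and its difference from replicate 2 was 0.2 (SE 0.093, limma adjusted p = 0.447; 0.31 with the exchange and 0.214 without 24 h). Insig1, itself a target of SREBP, read 2.15, 2.01 and 2.13 untreated, 2.29, 1.83 and 2.05 at 2 h, 2.25, 1.99 and 2.32 at 6 h, 1.75, 2.2 and 2.24 at 12 h, and 2.29, 1.79 and 2.19 at 24 h. The numbers overlapped for both.

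Insig2 separated replicate 1 from replicate 2. Replicate 1 read -2.62, -2.64, -2.61, -2.67 and -2.72 from untreated to 24 h, replicate 2 read -2.95, -2.95, -2.89, -3.04 and -2.99, and replicate 3 read -2.71, -2.82, -2.7, -3.1 and -2.63. No value of replicate 1 reached down to the highest of replicate 2, and replicate 3 spanned both. Replicate 2 minus replicate 1 was -0.31 (SE 0.083, limma adjusted p = 0.184), the smallest p among members in that comparison, and -0.33 with the exchange (adjusted p = 0.0648).

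The fatty acid enzymes ranged widely. All 8 were higher in replicate 3 than in replicate 2 as labelled (median 0.28), 4 at an unadjusted p under 0.05 and 0 called. Scd (A_64_P085530, NM_139192), the stearoyl-CoA desaturase that makes monounsaturated fatty acids, had the largest difference of the 32 members, 0.52 (SE 0.128, limma adjusted p = 0.0878). It read 3.73, 3.91, 3.7, 4 and 3.5 in replicate 3, 3.29, 3.28, 3.09, 3.35 and 3.2 in replicate 2, and 3.48, 3.34, 3.55, 3.53 and 3.97 in replicate 1. Replicates 3 and 2 did not overlap, and the 24 h sample labelled replicate 1 was the second highest of the 15.

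Fasn, the fatty acid synthase, read 4.34, 4.19 and 4.42 in untreated replicates 1, 2 and 3, 4.23, 4.1 and 4.42 at 2 h, 4.39, 4.15 and 4.38 at 6 h, 4.31, 4.16 and 4.92 at 12 h, and 4.37, 4.32 and 4.21 at 24 h. Replicate 3 exceeded replicate 2 in all groups but 24 h, by 0.28 on average (SE 0.113, limma adjusted p = 0.352; 0.139 with the exchange and 0.141 without 24 h). Acss2 and Acly, which supply acetyl-CoA from acetate and citrate, differed by 0.37 and 0.28. Acaca, which makes malonyl-CoA, and the polyunsaturated fatty acid desaturases Fads1 and Fads2 differed by 0.16, 0.13 and 0.12, each by about 1 SE (0.127, 0.134 and 0.115).

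Counting samples without regard to group, all 5 samples of replicate 3 lay above all 5 of replicate 2 for 9 members as labelled (1.6% of features), 16 with the exchange (2.83%) and 18 over the 4 samples each without 24 h (6.58%). The 9 were Acat2, Idi1, Sqle, Lss, Cyp51, Tm7sf2, Ebp, Elovl6 and Scd. The other probe of Elovl6 differed by -0.05 between replicates 3 and 2.

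Some markers of other cells moved with the replicate number too. Of 6 fibroblast and pericyte markers, the collagens Col1a1, Col1a2 and Col3a1 were called higher in replicate 3 than in replicate 2 as labelled, by 2.08, 1.65 and 2.17 (limma adjusted p = 0.00583, 0.0163 and 0.0108). Dcn, Lum and Pdgfrb were not called. Dcn and Pdgfrb read lower in replicate 3 than in replicate 2 in every group, and Lum had no steady order. The median given below therefore joins markers of both directions. The collagens were called also with the exchange (2.35, 1.9 and 2.49) and without the 24 h group. The median of the 6 markers was 0.8 as labelled, 1 with the exchange and 0.93 without 24 h. The mean level of the 6 was -2.55 to -2.32 in replicate 2, -2.14 to -1.31 in replicate 3 and -2.18 to -1.34 in replicate 1. Of 9 neuron markers, 8 were higher in replicate 3 than in replicate 2 (median 0.21, 0 called, and 0.24 and 0.28 with the exchange and without 24 h), and of 10 astrocyte markers 6 were (median 0.02, 0 called). The astrocyte median also joins both directions. In untreated replicates 1, 2 and 3, Gfap read -1.11, -0.74 and -0.29, while Aqp4 read 3.48, 3.06 and 2.47. Oligodendrocyte lineage (10 genes tested), microglia (6), endothelium (3) and dividing cell markers (5) had medians of 0.06, -0.17, -0.15 and 0.05, with 0 called in each as labelled. With the exchange 3 oligodendrocyte lineage markers were called, and 1 without the 24 h group. Markers of this list went in both directions. In untreated replicates 2 and 3, Pdgfra read 3.11 and 2.58, while Mbp read 0.55 and 1.34. The part of these markers in the members' differences was not tested. In bulk RNA a change in the share of a cell type and a change in RNA per cell cannot be told apart.

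**Figure D4:**
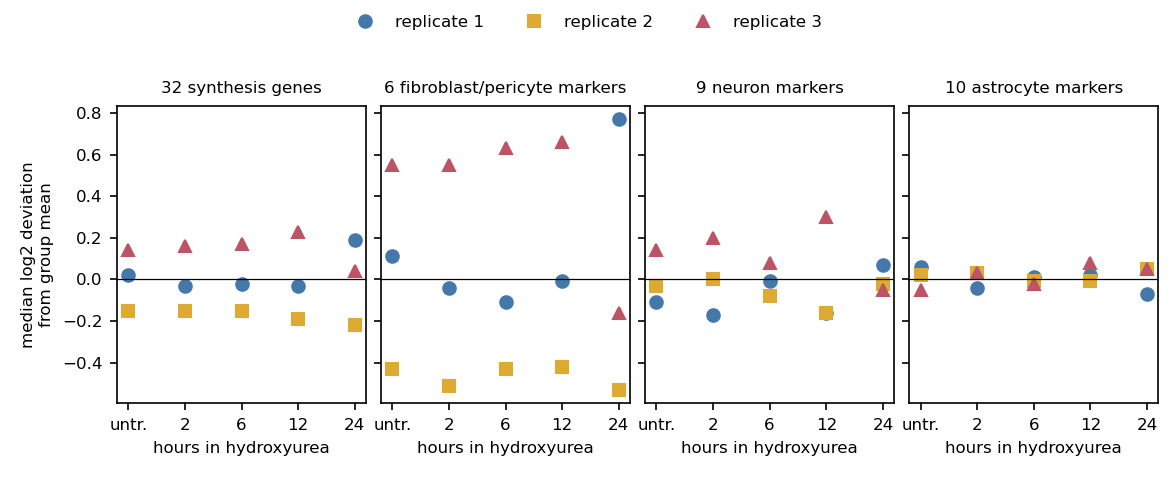
Median deviation (log2) from the group mean over the 32 members and over 3 marker lists, in every sample by group (untr. is untreated) and replicate number. Members run from -0.22 to 0.23, with replicate 2 lowest in every group. The median of the fibroblast and pericyte markers shows the same order over a wider range, which Dcn and Pdgfrb by themselves do not share. The median of the astrocyte markers stays near 0, though single markers differed by number in opposite directions.

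Genes of sterol export and fat oxidation were set beside the members by number. Of 16 tested genes of sterol turnover, efflux and LXR response, 6 were higher and 10 lower in replicate 3 than in replicate 2 (median -0.07), with 1 called. That was Abcg1, a transporter that exports cholesterol from cells and a target of the LXR receptors. It read 0.79, 0.62, 0.69, 0.62 and 0.9 in replicate 2, 0.47, 0.34, 0.27, 0.21 and 0.27 in replicate 3, and 0.41, 0.4, 0.45, 0.38 and 0.26 in replicate 1. Replicate 2 was highest in every group without overlap, opposite to the members, and replicate 3 minus replicate 2 was -0.41 (SE 0.083, limma adjusted p = 0.0371; 0.0147 with the exchange and 0.0522 without 24 h). The exporter Abca1 differed by -0.57 (SE 0.165, adjusted p = 0.155).

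Of 14 fatty acid oxidation genes tested, 4 were higher and 10 lower in replicate 3 than in replicate 2 (median -0.06, 0 called). Acadvl, the very long chain acyl-CoA dehydrogenase, read -0.14, -0.06, -0.2, -0.11 and 0.01 in replicate 2 from untreated to 24 h, -0.51, -0.27, -0.54, -0.66 and -0.39 in replicate 3, and -0.34, -0.38, -0.42, -0.17 and -0.56 in replicate 1. Replicate 3 lay below replicate 2 without overlap, with a difference of -0.38 (SE 0.098, limma adjusted p = 0.112, and 0.0253 with the exchange). Of 27 further genes of lipid synthesis and SREBP processing, 16 were higher in replicate 3 than in replicate 2 (median 0.07), 0 called. The smallest p were for Thrsp, a lipogenic protein (0.48, SE 0.114, limma adjusted p = 0.0811, and 0.0264 with the exchange), and Elovl2, a fatty acid elongase (0.42, SE 0.118, adjusted p = 0.148).

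Hydroxyurea called no member at any time. In limma comparisons with untreated at 2, 6, 12 and 24 h and over the mean of the 4 times, 0 of 32 members and 0 of 18110 features (0%) passed an adjusted p of 0.05. No member reached an unadjusted p under 0.05 in any of these, against 1.29%, 0.784%, 2.56%, 0.911% and 1.74% of features. The F test over the 5 groups and the comparison of 24 h with 2 h also had 0 members at either threshold (0.966% and 0.834% of features at an unadjusted p under 0.05). These fits left out the replicate number. With the number as a block and the 24 h numbers exchanged, Mvk had a limma unadjusted p of 0.0437 over the mean of the 4 times. It was not called. Median differences of the members were 0, 0.02, 0.07 and -0.01 at 2, 6, 12 and 24 h, beside 0, -0.01, 0.03 and 0 for all features. Members higher than untreated numbered 16, 20, 20 and 12 at the 4 times and 17 over their mean, beside 49.3%, 45.2%, 56.6%, 50.3% and 49% of features.

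The precision sets what could be seen. The SE of a member's difference from untreated ran from 0.086 (Scap) to 0.369 (Mvk) at each time, with a median of 0.18. With replicate number as a block the median was 0.15, or 0.13 with the 24 h numbers exchanged. The 95% interval lay within 1 log2 unit (2-fold) of no change for 30 members at 2, 6 and 24 h and 29 at 12 h, and within 0.5 for 30 members over the mean of the 4 times. The exceptions to the wider limit were Mvk and Elovl6 at every time and Fdft1 at 12 h.

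**Figure D5:**
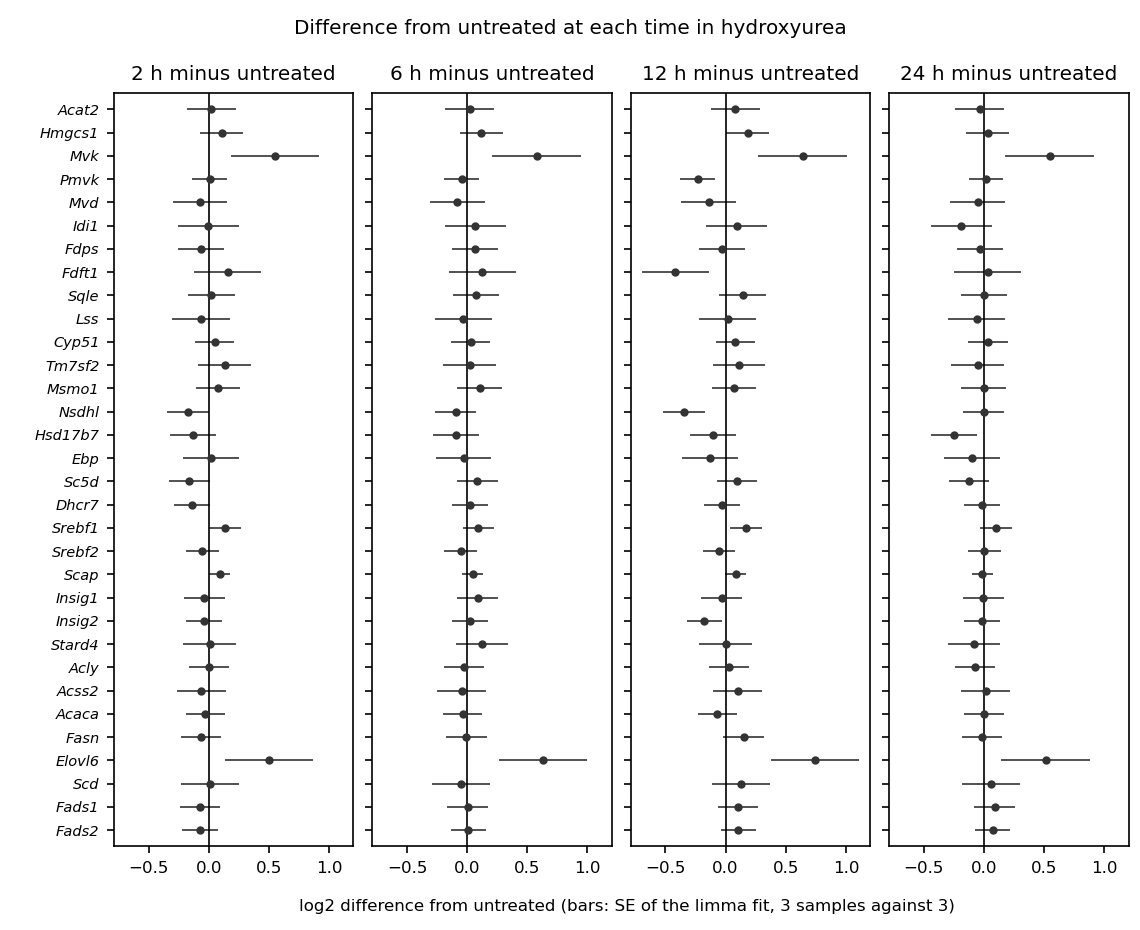
Difference from untreated (log2, points, bars of 1 SE of the limma fit, 3 samples against 3) of the 32 members at 2, 6, 12 and 24 h of hydroxyurea. Most points lie within 0.2 of 0, and Mvk and Elovl6 stand out at 0.5 to 0.75, with the widest bars.

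The largest differences rested on 1 array. Mvk, the mevalonate kinase, read -1.52, 0.13 and 0.5 in untreated replicates 1, 2 and 3, against 0.19, 0.14 and 0.44 at 2 h, 0.28, 0.12 and 0.45 at 6 h, 0.25, 0.05 and 0.74 at 12 h, and 0.3, 0.28 and 0.17 at 24 h. Elovl6, which elongates palmitate, read 0.25, 1.88 and 2.26 untreated, 2.11, 1.8 and 1.97 at 2 h, 2.17, 1.97 and 2.13 at 6 h, 2.23, 1.91 and 2.48 at 12 h, and 2.15, 1.73 and 2.04 at 24 h. Untreated replicate 1 was the low sample for both. Its first array read -3.11 for Mvk and -1.66 for Elovl6, not well above background, while its repeat array read 0.08 and 2.15.

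The mean difference over the 4 times was 0.58 for Mvk (SE 0.292) and 0.6 for Elovl6 (SE 0.289), both with a limma adjusted p of 1. With the repeat array alone the differences were 0.05 and -0.04, and without untreated replicate 1 they were -0.03 and -0.01. The other Elovl6 probe, A_44_P428691, was well above background on both arrays (-0.46 and -0.59) and differed by -0.2.

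The other members named by their p in a comparison with untreated differed little. Nsdhl at 12 h differed by -0.35 (SE 0.173, limma adjusted p = 0.994), with 0.44, 0.56 and 0.11 in replicates 1, 2 and 3 against 0.64, 0.47 and 1.05 untreated, and the groups overlapped. Its other values were 0.56, 0.4 and 0.67 at 2 h, 0.79, 0.36 and 0.72 at 6 h, and 0.81, 0.82 and 0.52 at 24 h. Pmvk differed by -0.23 at 12 h (SE 0.145, adjusted p = 0.994). It read 1.8, 1.55 and 1.88 untreated, 1.72, 1.57 and 1.97 at 2 h, 1.66, 1.55 and 1.88 at 6 h, 1.55, 1.59 and 1.39 at 12 h, and 1.93, 1.54 and 1.81 at 24 h. The low 12 h values of Nsdhl and Pmvk in replicate 3 came from the sample with the widest spot spread. That sample also gave the highest values of Acat2 (5.85), Hmgcs1 (7.37), Sqle (5.6), Fasn (4.92) and Scd (4), so the same limit holds for them.

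Hsd17b7 differed by -0.25 at 24 h (SE 0.191, adjusted p = 1). It read 0.3, 0.16 and 0.41 untreated, 0.04, -0.04 and 0.47 at 2 h, 0.03, 0.18 and 0.37 at 6 h, 0.05, 0.03 and 0.46 at 12 h, and 0.34, -0.36 and 0.13 at 24 h. At 24 h the low sample was replicate 2, and replicate 1 lay within the untreated range. Srebf1 was 0.09 to 0.17 higher than untreated at each time (SE 0.131), Scap 0.09 higher at 2 h (SE 0.086), and Hmgcs1 0.12 higher at 6 h (SE 0.177), each with an adjusted p of 1 or 0.994. The lowest Srebf1 value, 2.58 in untreated replicate 3, was 1 of the 3 control samples behind these.

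Few members separated from untreated sample by sample. At 2 h, 2 of 32 members did not overlap the untreated group, Fdft1 and Scap, both higher (6.2% of features did not overlap in either direction, 3.13% above untreated and 3.08% below). At 6, 12 and 24 h there were 0, against 4.22%, 5.23% and 3.2% of features. Fdft1 read 3.37, 3.22 and 3.29 at 2 h against 3.18, 3.2 and 3.02 untreated, a gap of 0.02 between the nearest samples. For Scap the nearest samples, 2 h replicate 1 and untreated replicate 2, both rounded to 2.04, so the gap was smaller than the rounding. With 1 sample left out, more members and more features separated. At 2 h there were 7 members without 2 h replicate 3 (15.5% of features), 5 without untreated replicate 1 (15.6%), and 4 each without untreated replicates 2 and 3 (17.5% and 12%). At 12 h there were 4 without 12 h replicate 1 (14%) and 5 without 12 h replicate 2 (19.2%), and at 24 h there were 7 without 24 h replicate 2 (15.3%).

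By role, the median differences over the mean of the 4 times were -0.01 for the mevalonate enzymes (Mvk included), -0.03 for the squalene and sterol genes, 0.01 for the regulators and 0.02 for the fatty acid enzymes. At 12 h, 7 of 8 fatty acid enzymes were higher than untreated (median 0.1), beside 56.6% of features. Each of these 7 read highest at 12 h in replicate 3, the sample with the widest spot spread. The Elovl6 difference also included the low first array of untreated replicate 1. At 24 h, 9 of 11 squalene and sterol genes were lower (median -0.02), while 50.3% of features were higher. None of these members was called. Related lists had 0 genes called by treatment. In them the smallest p was that of Lpin1, a phosphatidate phosphatase and coactivator, at 12 h (0.73, SE 0.193, limma adjusted p = 0.994). It read -4.99, -4.18 and -4.38 at 12 h against -5.22, -5.16 and -5.37 untreated, without overlap. Mlxipl, a glucose-sensing factor of lipogenic genes, differed by -0.53 at 24 h (SE 0.237, adjusted p = 1). Both genes were dim: over the samples Lpin1 read -5.58 to -4.18 and Mlxipl -6.69 to -5.31. The filter asked for only 1 group well above background, so a dim gene may have entered through the group where it was high.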

How the data were processed

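RNA from 15 samples was measured on 16 Agilent one-colour (Cy3) arrays. Per the file headers, Feature Extraction 11.5.1.1 produced the processed signal intensity used here. The authors' deposited series table holds a score per probe, which matched a standard score of log2 signal within each array and served as an alternative. Probes were named through RefSeq accessions. From the intensity, log2 was taken, the 75th percentile over non-control probes of each array was subtracted, and the 2 arrays of untreated replicate 1 were averaged. A probe entered if all arrays of 1 group or more had it well above background, and the probe with the highest mean stood for a named gene. A limma model (version 3.58.1, R 4.3.3) fitted to all 18110 features gave the comparisons of groups, with Benjamini-Hochberg adjustment and a threshold of 0.05, and a second with group and number as terms gave those of replicate numbers.

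The members, lists and tests were chosen with earlier results of these data known. Members given in full were the 6 with the smallest p in the F test over numbers, the 4 with the smallest p in each comparison with untreated, and 9 named regulators and enzymes. Of related genes, the 2 with the smallest p per list and comparison were eligible. Alternatives covered background correction, scaling, probe and dim-probe rules, arrays of untreated replicate 1, slide, weights, replicate numbers and leaving out samples. The normexp alternative used the median foreground signal, not the mean signal first planned. Fits with the slide as a block entered both arrays of untreated replicate 1 separately. Settings that left out the 24 h group, or combined the exchange with the slide or a left-out sample, were chosen after seeing the data. The exchange itself was also prompted by these data. The number of arrays limits the precision. A related gene that the rule would name is not reported here.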

Additional observations from a re-analysis of the deposited data

How the results depend on the processing

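No treatment comparison called a member under the other settings run for it (36 for each time, 35 for the mean of the 4 times and for the F test). The replicate block (number as a factor beside group), alone, with the slide or with the 24 h numbers exchanged, also left 0 members called by treatment. Same-numbered samples correlated above 0.1 in 18 of 30 pairs as labelled (median 0.14) and in 23 of 30 with the 24 h numbers exchanged (lowest 0.01, median 0.19). The numbers were taken as pairing the samples only if every pair exceeded 0.1, so treatment was fitted without the block. For replicate 3 minus replicate 2, 0 members were called as labelled (1.1% of features). Members called numbered 1 with normexp (0.663% of features), 9 with the deposited scores (2.62%) and 11 with array weights (4.52%). The 24 h columns 1 and 3 of the deposited scores are also exchanged against the scanner files, here and below. Members called numbered 12 with the replicate block with 24 h numbers exchanged (3.31%). They numbered 9 with the exchange and the slide as a block (1.71%), and 6 without the 24 h group (1.89%). With the exchange, they numbered 10 when 12 h replicate 3 or untreated replicate 1 was left out (3.02% and 3.07% of features). Leaving out 1 sample as labelled gave 0 to 7, with 7 when 24 h replicate 3 was left out (2.27% of features). The median over members was 0.07 in SD units with a standard score per array and with the deposited scores. For replicate 3 minus replicate 1 (0), the counts were 2 with deposited scores (0.977% of features) and 3 with the exchange (1.39%). They were 0 with the exchange and slide (0.226%) and 0 without 24 h (0.613%). With the exchange they were 2 and 1 when 12 h replicate 3 or untreated replicate 1 was left out (1.14% and 0.773%). For replicate 2 minus replicate 1 (0), array weights gave 2 (1.93% of features), and the exchange without 12 h replicate 3 gave 1 (1.81%). For the F test over numbers (0), the counts were 5 with deposited scores (2.69% of features) and 10 with array weights (3.59%). They were 8 with the exchange (3.48%), 5 with the exchange and slide (1.97%) and 4 without 24 h (1.83%). With the exchange they were 9 and 7 when 12 h replicate 3 or untreated replicate 1 was left out (3.54% and 2.76%). Leaving out 1 sample gave 0 to 5, with 5 when 24 h replicate 3 was left out (2.04% of features). Members not overlapping untreated at 2 h (2) numbered 0 with normexp, and 1 with quantile normalization, with the first array of untreated replicate 1 alone and with the percentile over spots. They numbered 5 without both untreated replicate 1 and 12 h replicate 3, and 2 to 7 when 1 sample was left out. At 6 h (0) they numbered 2 without both samples and 0 to 2 without 1. At 12 h (0) they numbered 1 with normexp, 3 without both and 0 to 5 without 1. At 24 h (0) they numbered 0 to 7 without 1. With 1 sample of either group left out, 11.1% to 19.9% of features did not overlap at 2 h and 9.91% to 15.7% at 6 h. The shares were 11.7% to 19.2% at 12 h and 7.63% to 15.3% at 24 h. Under the other settings the share of features not overlapping was not counted. Fewer samples make non-overlap easier; the cause of the other shifts was not tested.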
